A study of Mus musculus with 72 samples.

Results

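The genes described here are those listed with one gene ID in both the liver and the suprachiasmatic nucleus (SCN) count tables, compared between the tissues on the control diet. There were 14491 of them, of 24091 genes in either table. There were 22823 genes in the liver table and 15759 in that of the SCN, so 8332 genes were in the liver table alone and 1268 in the SCN table alone. The mice were C57BL/6, 8 to 12 weeks old, and ate a control diet freely for 11 days. The protocol text speaks of males, whereas the sample labels give both sexes, which are used here. The other arm of the study, on a methionine/choline deficient (MCD) diet, is used only where it is named. Tissue was collected every 4 h over 6 circadian times (CT) in constant darkness, with 3 libraries per tissue and time, 2 from males and 1 from a female. This gave 18 liver and 18 SCN libraries. Liver RNA came from a piece of the left lobe, and SCN RNA came from cells cut by laser from stained brain sections, so tissue, dissection and RNA preparation changed together and cannot be told apart. The labels do not say that a liver and an SCN library came from one mouse, and p-values measure the spread between these libraries.

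The liver makes most plasma proteins, stores and releases glucose, makes fat and bile acids, and turns ammonia into urea, mainly in hepatocytes. The SCN is a small paired nucleus of the hypothalamus whose neurons, most of which use GABA, set daily timing for the body, with astrocytes and myelinating oligodendrocytes around them. Cells of both tissues carry a clock in which CLOCK and BMAL1 (gene symbol Arntl) switch on their own repressors, the PER and CRY proteins and the nuclear receptors NR1D1 and NR1D2.

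Levels are CPM, the usual counts scaled to one common library size, here adjusted by TMM factors, and a difference is the edgeR log2 estimate of liver minus SCN, averaged over the 6 times with the sexes held apart. A positive difference is higher in liver. Because the times are averaged on the log scale, a rhythmic gene can have a difference of one sign and mean CPM in the other order. Library totals over all listed genes were 52600280 to 86153692 counts in liver and 23347789 to 79759552 counts in the SCN. The shared genes held 67.6% to 78.1% of liver counts and 95.3% to 96.1% of SCN counts. The lowest total of any gene over its table's 36 libraries was 41 counts in liver and 1410 in the SCN, so a gene could be nearly without counts in liver and still be shared, but not the reverse. The CT04 and CT20 female SCN libraries, 2 of the 3 with the fewest counts, had the highest albumin levels among SCN libraries, 18.3 and 21.1 CPM, against at most 7.84 CPM in the others. Among the liver libraries, 8 had mt-Nd6 at 105 to 215 CPM and 10 at 923 to 1690 CPM, against 111 to 198 CPM in the SCN. A CT08 male liver library of the control group had Gnmt, a glycine methyltransferase, at 585 CPM, below the 919.9 to 1931 CPM of the other 17 and inside the 249 to 916 CPM of MCD livers. Results that change without these libraries are given with and without them, except counts of fits that kept a single liver library at some times.

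A pair of promoters is shown from the extremes of the comparison, the gene of highest liver difference and a gene among the highest in SCN, both from RefSeq on GRCm38.p6, with 250 bases before and 50 after the start. Capitals mark exact matches of TTATGTAA (either strand), a form of the D-box bound by DBP, HLF and TEF, in the albumin promoter. In the secretogranin II promoter they mark TGACGTCA, the cyclic AMP response element. Sites with other letters stay in lower case, so the capitals need not mark the D site for which Dbp was named. Albumin lies at chr5:90460620-90460919 (plus strand) and Scg2 at chr1:79439977-79440276 (minus strand).
Alb: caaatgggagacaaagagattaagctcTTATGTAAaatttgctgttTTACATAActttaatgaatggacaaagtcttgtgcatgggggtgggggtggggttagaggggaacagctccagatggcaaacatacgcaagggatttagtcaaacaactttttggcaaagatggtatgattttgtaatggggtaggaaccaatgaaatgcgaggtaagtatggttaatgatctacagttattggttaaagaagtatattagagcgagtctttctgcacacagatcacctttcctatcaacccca
Scg2: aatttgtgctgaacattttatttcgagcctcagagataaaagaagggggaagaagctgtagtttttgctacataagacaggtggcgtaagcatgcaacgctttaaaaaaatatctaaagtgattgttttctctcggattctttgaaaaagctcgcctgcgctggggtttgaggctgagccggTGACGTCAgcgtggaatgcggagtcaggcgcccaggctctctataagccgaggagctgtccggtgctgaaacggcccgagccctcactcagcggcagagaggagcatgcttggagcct
A promoter was listed for 10311 shared genes, 71.2% of them. TTATGTAA occurred in 0.485% of these promoters and in 0.955% of all 27025 promoters of the RefSeq table. TGACGTCA occurred in 3.23% and 1.88% of them. It was in 2.49% of promoters of genes higher in liver beyond 2-fold, 2.42% of those higher in SCN and 4.10% of the rest. The shares are descriptions of letters in the window.

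Most shared genes differed between liver and SCN. The edgeR quasi-likelihood test called 13227 genes at an adjusted p below 0.05, which is 91.3% of those tested: 6501 (44.9%) were higher in liver and 6726 (46.4%) higher in SCN. A test against a 2-fold difference (glmTreat) called 7446 genes, 51.4%, with 3444 (23.8%) higher in liver and 4002 (27.6%) higher in SCN. In 7997 genes, 55.2%, the 18 libraries of one tissue all lay above the 18 of the other, with liver above in 27.4% and SCN above in 27.8%. The median difference of all genes was -0.03, and its quartiles were -1.38 and 1.06. Large differences were more often on the SCN side, where 379 genes called beyond 2-fold had estimates of at least 8 log2 units, against 49 in liver. The tables' minimums given above bound the 2 sides unequally. The direction of many differences depends on the scaling. With totals of the shared genes in place of TMM factors, the median moved by -0.72, and 30.2% of called genes were higher in liver instead of 49.1%. Beyond 2-fold, 2039 genes were then higher in liver and 5928 in SCN, and 1562 and 7336 with totals of the whole tables and no factor.

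**Figure D1:**
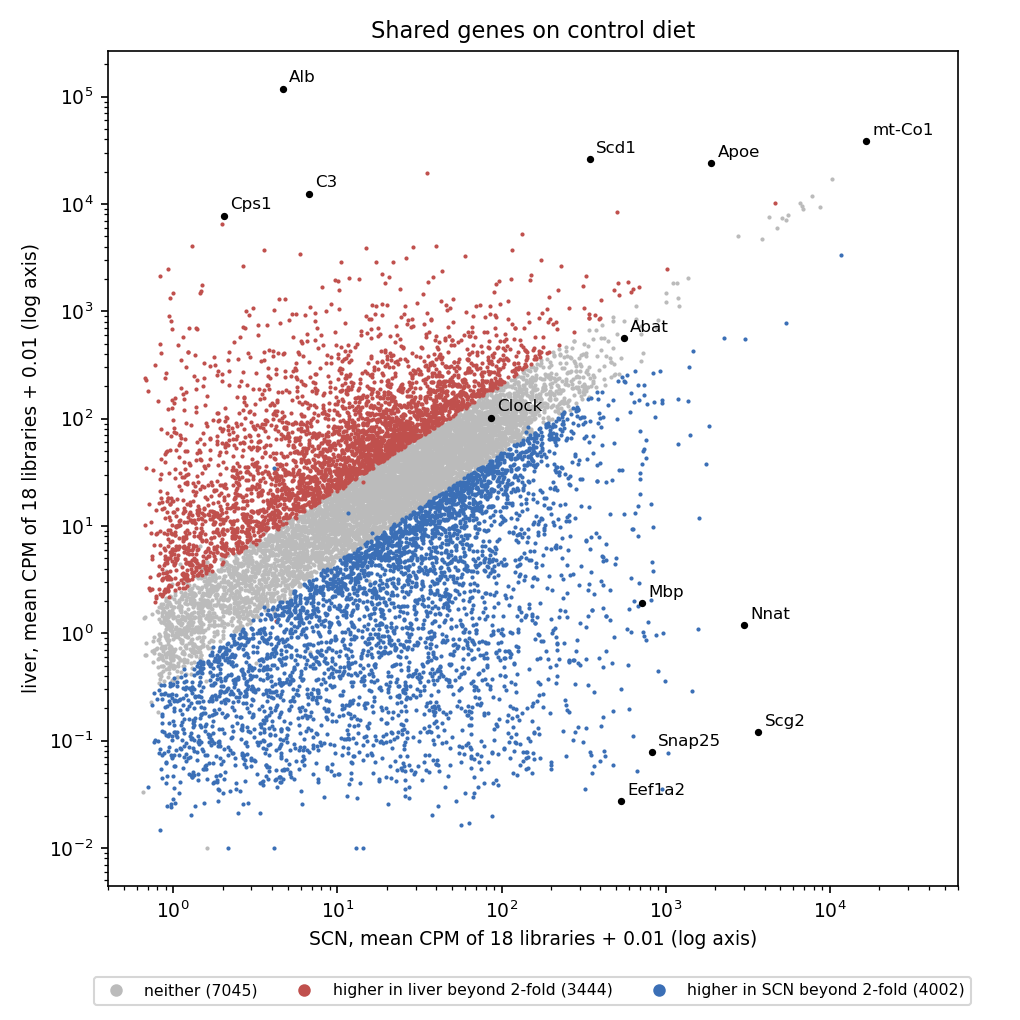
Mean liver CPM against mean SCN CPM of the 14491 shared genes, on log axes with 0.01 added. The 3444 genes higher in liver beyond 2-fold mostly lie above the grey points and the 4002 higher in SCN below them, and liver means reach far lower values than SCN means.

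The 10 highest liver differences belonged to genes of plasma proteins and of liver enzymes, among others. Albumin (Alb), the main plasma protein, ran from 90138 to 161385 CPM in liver (median 118375) and from 0.663 to 21.1 CPM in the SCN (median 2.80). The difference was 15.04 ± 0.44 (SE). No SCN library came near any liver library. Cps1, the first enzyme of the urea cycle, had liver values of 4443 to 11084 CPM (median 7788) and SCN values of 0 to 3.70 CPM (median 1.96), a difference of 11.92 ± 0.29. Apolipoprotein A-II (Apoa2) had 3172 to 7669.8 CPM in liver (median 6569) against 0 to 3.47 CPM (median 1.83), a difference of 11.74 ± 0.26. Complement C3 differed by 10.91 ± 0.20, and coagulation factor V (F5) by 10.54 ± 0.22. All of these ranges were separate. The rest of the 10 highest were Rbp4, Col18a1, Hp, Cyp2f2 and Nat8f2, at differences up to 11.71. Hp moved from 11.51 to 12.89 without the SCN CT20 replicate 1, and Cyp2f2 from 10.66 to 11.89 without the SCN CT16 female.

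Of the 24 hepatocyte markers, 7 were shared and 17 were in the liver table alone. All 7 were higher in liver beyond 2-fold, and their summed level was 130334 to 207561 CPM in liver and 47.1 to 82.9 CPM in the SCN. Transferrin (Trf), the plasma iron carrier that oligodendrocytes also make, had the highest SCN mean of them, 35.1 ± 5.77 CPM (SD, n = 18). Of plasma protein and coagulation genes, 8 of 41 were shared. All 8 were higher in liver, 7 beyond 2-fold, with a median difference of 7.61. All 8 shared hepatocyte transcription factors were higher in liver beyond 2-fold (median 5.55). Cebpa, a regulator of hepatocyte metabolism, had 590.2 to 993 CPM in liver (median 801) and 4.25 to 11.2 CPM in the SCN (median 6.52).

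Metabolic lists leaned to liver, with exceptions. Of 19 shared cytochrome P450 genes, 14 were higher in liver and 3 in SCN beyond 2-fold, and 54 more were in the liver table alone. Cyp27a1, of the alternative route of bile acid synthesis, differed by 9.04 ± 0.25. Cyp46a1, which brain uses to clear cholesterol, had 55.4 to 88.3 CPM in the SCN and 1.28 to 7.12 CPM in liver. In lipid synthesis, 17 of 18 shared genes were higher in liver beyond 2-fold (median 4.24). Scd1, a stearoyl-CoA desaturase, had 8963 to 64961 CPM in liver (median 25068) against 281 to 447 CPM (median 333), and fatty acid synthase (Fasn) differed by 5.10 ± 0.26. The exception was Scd2, a desaturase of the same family, at 72.2 to 339 CPM in liver and 1220 to 1633 CPM in the SCN. In fatty acid oxidation and ketogenesis, 16 of 18 were higher in liver beyond 2-fold (median 3.54), with Acaa1b, a peroxisomal thiolase, at 8.44 ± 0.16. The 2 higher in SCN were Cpt1c, the brain carnitine palmitoyltransferase, and Oxct1, which uses ketone bodies, at -6.38 ± 0.11 and -4.07 ± 0.07. In the urea cycle and ammonia list, 7 of 9 were higher in liver and 1 in SCN beyond 2-fold. For cholesterol synthesis, 16 of 22 were higher in liver beyond 2-fold and none in SCN. Srebf2, a transcription factor that drives this pathway, was higher in SCN at -0.51 ± 0.06. Among 26 genes of the methionine and methyl cycle, the pathway that the other diet withholds substrate from, 12 were higher in liver and 7 in SCN beyond 2-fold, the latter a share near the 27.6% of all shared genes. The list's median was 0.99, and it was 0.27 with totals of the shared genes as the scaling and -0.13 with totals of the whole tables. Sardh, which breaks down sarcosine, differed by 7.28 ± 0.12, and Pemt, which makes phosphatidylcholine by methylation, by 6.57 ± 0.12. Mat2a, the methionine adenosyltransferase of most tissues, had 115 ± 21.7 CPM in liver and 116 ± 11.1 CPM in the SCN (SD, n = 18), a difference of -0.02 ± 0.05. Its difference depended on the time of day (adjusted p = 0.0252, edgeR), and on the MCD diet it was 1.33.

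The 6 genes with the lowest differences were Tmem130, Eef1a2, Scg2, Ptprn, Tub and Vat1l, and in liver they rested on few counts. Tmem130 had 724 to 1159.9 CPM in the SCN (median 981) and 17 counts over all 18 liver libraries, 15 of which had none. Eef1a2, the elongation factor of neurons and muscle, had 443 to 621 CPM (median 521) and 10 liver counts. Scg2 (secretogranin II), a granule protein of neuroendocrine cells, had 2759 to 4858 CPM (median 3691) and 72 liver counts. All SCN libraries lay above all liver libraries for each. The estimates were -16.36 ± 0.25, -16.31 ± 0.23 and -15.69 ± 0.28, and with so few liver counts they depend on the prior count and on single liver libraries. Tmem130 became -17.17 without the CT00 replicate 1, -17.17 without the CT04 female and -16.94 without the CT12 replicate 2. Eef1a2 became -17.00 without the CT08 male b and -17.06 without the CT16 female, and Scg2 became -16.66 without the CT00 replicate 1 and -16.59 without the CT04 female. Among genes of at least 1 CPM in both tissues, Nnat, an imprinted neuronal gene, was lowest, at 2098 to 4372 CPM in the SCN (median 2762) and 0.554 to 1.75 CPM in liver (median 1.11), a difference of -11.33 ± 0.12. Cpe, a prohormone processing enzyme, followed at -10.50 ± 0.10, then Rian, an imprinted non-coding RNA, at -9.98 ± 0.07, Spock2 at -9.52, Syp, a synaptic vesicle protein, at -9.27 and Ndn, also imprinted, at -9.26 ± 0.12.

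All 18 shared neuron markers of 20 were higher in SCN beyond 2-fold with no overlap (median -9.28). Their summed level was 5802 to 6827 CPM in the SCN and 25.9 to 54.1 CPM in liver. Snap25, a synaptic fusion protein, had 732 to 922 CPM in the SCN (median 835) and at most 0.243 CPM in liver, where 9 libraries had no count. Of 23 shared genes for synaptic vesicles and release, 22 were higher in SCN beyond 2-fold (median -5.77) and Vamp1 was higher by less. Of 67 shared potassium, sodium and calcium channel genes, 55 were higher in SCN and 3 in liver beyond 2-fold. Of 19 shared GABA and glutamate receptor genes, 17 were higher in SCN and none in liver beyond 2-fold, and 18 and 1 at an adjusted p below 0.05 alone. Of the 8 GABA neuron markers 3 were shared and 5 were in the SCN table alone, and 2 of the 3 were higher in SCN beyond 2-fold without overlap. Dlx1, a transcription factor, had 34.3 to 52.6 CPM in the SCN and 17 counts over all liver libraries. Abat, the enzyme that breaks down GABA, had 279.7 to 695.7 CPM in liver and 459 to 642 CPM in the SCN, a difference of 0.01 ± 0.08.

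Of 20 SCN markers, 16 were in the SCN table alone and 4 were shared, all higher in SCN. Lhx1, a transcription factor that SCN neurons need to stay in step, had 59.6 to 128 CPM in the SCN (median 83.0) and 6 counts over the liver libraries. Zfhx3, also a transcription factor of SCN neurons, had 50.9 to 107.6 CPM in the SCN and 15.6 to 28.01 CPM in liver, a difference of -1.67 ± 0.09. Rgs16, a brake on G protein signalling, ran from 11.9 to 755 CPM in liver and from 100.2 to 636 CPM in the SCN, and the ranges overlapped. Of 12 shared genes of G protein-coupled signalling in the SCN, 9 were higher in SCN beyond 2-fold and none in liver. Adcyap1r1, the receptor of the retinal peptide PACAP, differed by -5.72 ± 0.15, and Gnao1, a G protein subunit of neurons, by -8.24 ± 0.11. Of 11 shared neuronal transcription factors, 9 were higher in SCN beyond 2-fold. Tcf4 was higher in SCN by less, at -0.55 ± 0.05. Meis2 was higher in liver beyond 2-fold, at 7.51 to 10.7 CPM in liver and 1.08 to 8.46 CPM in the SCN, with overlapping ranges.

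Receptors and transporters split by family member. Of 31 shared nuclear receptors, 14 were higher in liver and 6 in SCN beyond 2-fold, against 23.8% and 27.6% of all shared genes. The list's median was 1.11, and 0.39 with totals of the shared genes as the scaling. Thyroid hormone receptor beta (Thrb) was higher in liver at 2.94 ± 0.07 and receptor alpha (Thra) higher in SCN at -4.19 ± 0.06. Nr1h3 (LXR alpha), a sterol sensor, differed by 5.94 ± 0.11, and Nr3c1, the glucocorticoid receptor, had 130.8 to 232 CPM in liver and 25.8 to 44.6 CPM in the SCN. Of 20 shared amino acid and glucose transporters, 7 were higher in liver and 11 in SCN beyond 2-fold. The glucose transporter of neurons, Slc2a3, had 49.3 to 79.6 CPM in the SCN and 0.327 to 1.54 CPM in liver. Slc38a3, which carries glutamine, was higher in liver at 5.73 ± 0.10. All 9 shared hormones, growth factors and related genes of liver were higher there beyond 2-fold (median 4.05), with Igfbp2, a binder of insulin-like growth factors, at 8.94 ± 0.15.

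Glial genes were higher in SCN in part. Slc1a3, the astrocyte glutamate transporter, had 685 to 909.6 CPM in the SCN and 0.251 to 1.77 CPM in liver, a difference of -9.84 ± 0.18, and Gfap, the astrocyte filament protein, differed by -9.03 ± 0.11. Of 11 shared astrocyte markers, 6 were higher in SCN beyond 2-fold and 2, Cbs and Agt, in liver, where hepatocytes make both. Of 7 oligodendrocyte markers, 6 were higher in SCN beyond 2-fold, with Mbp, a myelin protein, at -8.57 ± 0.15. Of 8 microglia markers, 6 were higher in SCN and 1 in liver beyond 2-fold. That one was Sall1, with 30.0 to 129.6 CPM in liver and 5.65 to 17.6 CPM in the SCN. All 10 macrophage markers that both tissues use were higher in liver beyond 2-fold (median 2.14), as were all 8 endothelial markers of both tissues (median 2.81). Of 10 brain endothelium markers, 3 were higher in liver and 4 in SCN beyond 2-fold (median -0.13). In bulk tissue, fewer cells of a type and less RNA per cell cannot be told apart. Of 6 shared erythrocyte markers, 1 was higher in liver and 1 in SCN beyond 2-fold, each without overlap. The globin genes among them did not pass the test. Hba-a1 had 47.1 to 142 CPM in liver (median 79.7) and 17.2 to 323 CPM in the SCN (median 47.3). Its difference was 0.27 ± 0.27 with an interval of -0.30 to 0.83.

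**Figure D2:**
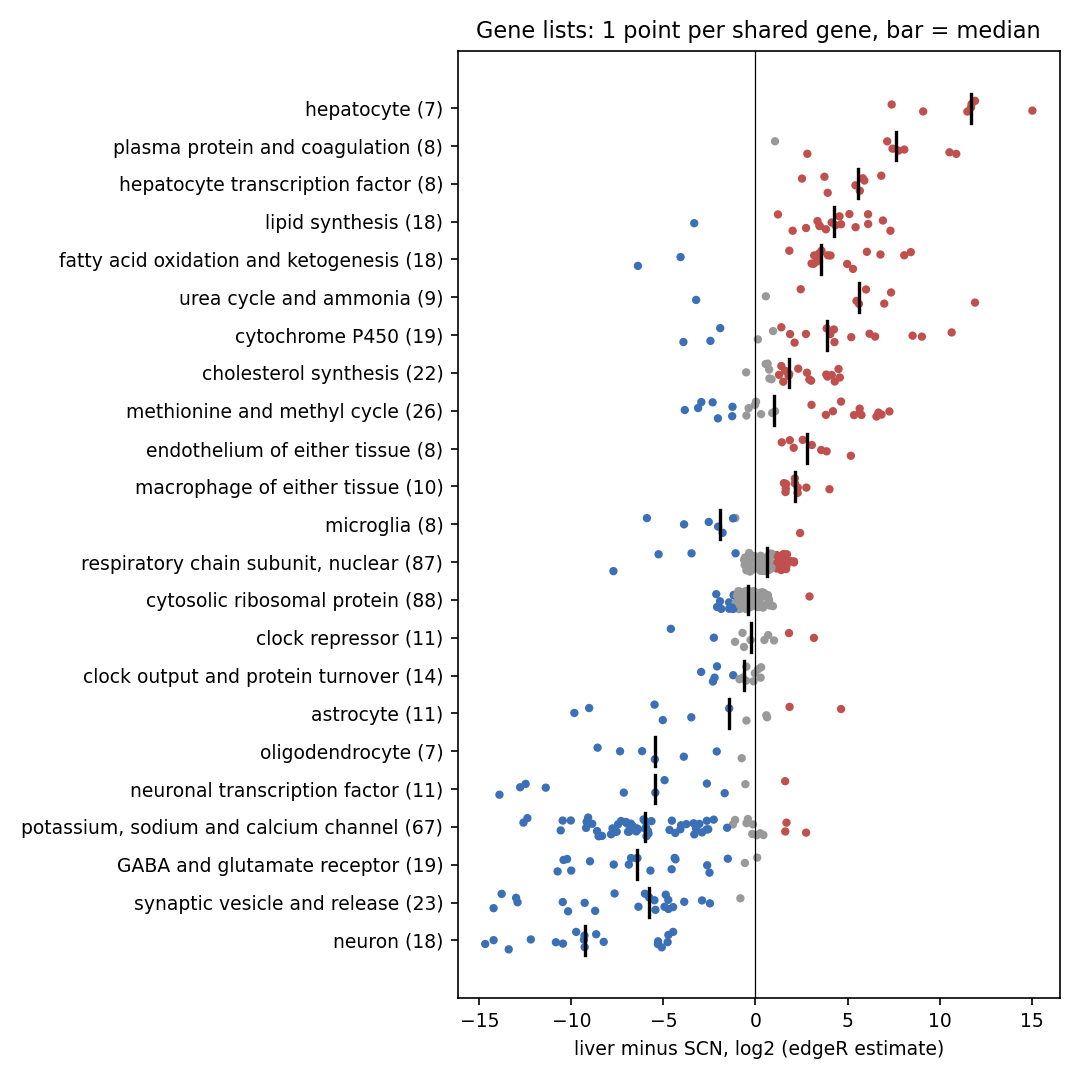
Liver minus SCN log2 difference of each shared gene in 23 lists, with the number of genes in brackets and the median as a bar. Red points are higher in liver and blue points higher in SCN beyond 2-fold, and grey points are neither.

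Some defining genes were in a single gene table, and exon-bin counts of both tissues gave their levels, as CPM of all bin counts. Hnf4a, the nuclear receptor that defines hepatocytes, had 445 ± 64.4 in liver (SD, n = 16 files), and 4 counts in all 18 SCN files. Cyp7a1, the rate-limiting enzyme of bile acid synthesis, had 118 ± 96.9 in liver and no SCN count. Vip, a signalling peptide of SCN neurons, had 1121 ± 217 in the SCN (SD, n = 18) and 20 counts over the liver files. Avp, the SCN peptide vasopressin, had 592 ± 331 in the SCN and 4 liver counts. Nms (neuromedin S) had 175 ± 41.1 in the SCN and none in liver. A low level in the other tissue is largely fixed by which table lists a gene and is no finding. Of the 8332 genes in the liver table alone, 7683 had an exon sum and 1265 of these reached 1 CPM of bin counts in liver itself, and of the 1268 genes in the SCN table alone, 1156 had one and 1056 of these did so in the SCN. Col1a1, a collagen chain in the SCN table alone, had 9.78 ± 17.9 in liver and 5.28 ± 6.14 in the SCN.

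Pairs of related genes were listed for an expected split, the second gene being the one expected in brain, so their count is a description. In 13 of 20 pairs with both genes shared, the first was higher in liver and the second higher in SCN, both beyond 2-fold. Some first genes, such as Eef1a1, Clock and Elavl1, are active in most tissues, and of the Cox7a pair the second, Cox7a2, is the form known from liver. For lactate dehydrogenase, Ldha had 654 to 1101 CPM in liver and 89.96 to 127.6 CPM in the SCN, a difference of 2.93 ± 0.05. Ldhb had 2.35 to 4.01 CPM in liver and 255 to 342 CPM in the SCN, a difference of -6.73 ± 0.06. Neither gene's ranges overlapped. In the elongation factor pair, Eef1a2 was far higher in SCN (-16.31), while Eef1a1 differed by 0.31 with overlapping ranges. In the AMP-activated kinase pair the order was the other way: Prkaa2 had 118 to 212 CPM in liver and 20.8 to 84.1 CPM in the SCN, a difference of 2.11 ± 0.09, and Prkaa1 one of -0.41.

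**Figure D3:**
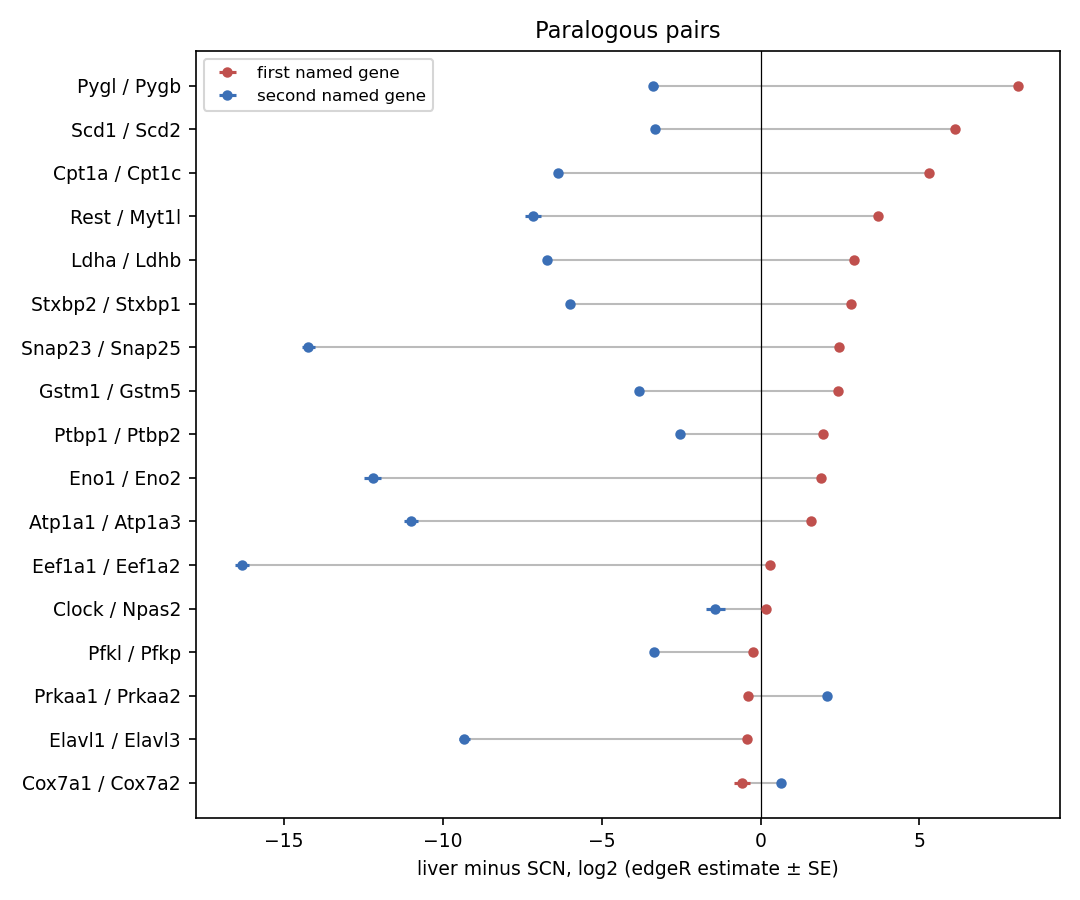
Liver minus SCN log2 difference with its SE for 17 of the 20 pairs whose genes are both shared. Red points are the gene named first and blue points the one named second. In 15 of them the red point lies to the right.

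The genes with the most counts were partly the same in both tissues. The mitochondrial transcript mt-Co1 had 24194 to 45589 CPM in liver and 13296 to 20878 CPM in the SCN, a difference of 1.22 ± 0.07. Apoe, a lipid carrier made by hepatocytes and astrocytes, had 19517 to 28450.5 CPM in liver and 1486 to 2362 CPM in the SCN. Among the genes of highest SCN level were the ribosomal RNA transcripts Rn18s-rs5, at -1.70 ± 0.14, and mt-Rnr2, at -2.77 ± 0.11, each higher in SCN without overlap. The libraries were made from poly-A selected RNA, so these counts do not measure the ribosomal RNA of the tissues. Of 88 cytosolic ribosomal protein genes, 11 were higher in SCN and 1 in liver beyond 2-fold, against 27.6% and 23.8% of all shared genes. The list's median was -0.40, and -1.12 with totals of the shared genes as the scaling. Of 87 nuclear genes of the respiratory chain, 68 were higher in liver and 15 in SCN, against 44.9% and 46.4% of all shared genes. Beyond 2-fold there were 25 and 4, against 23.8% and 27.6% of all shared genes. The list's median was 0.64, and -0.09 with totals of the shared genes as the scaling. Of 36 proteasome subunit genes, 32 were called in neither direction beyond 2-fold, against 7045 of all 14491 shared genes. The list's median was 0.45, and -0.27 with those totals. Among 16 m6A writers, erasers and readers, the proteins that set, remove and bind methyl marks on mRNA, Mettl16 (a writer) and Fto (an eraser) were higher in SCN beyond 2-fold, at -1.28 ± 0.05 and -1.24 ± 0.04, and 4 were higher in liver beyond 2-fold, a share near the 23.8% of all shared genes. The list's median was 0.31, and -0.41 with those totals. Of 72 cytosolic chaperonin and heat shock genes, 15 were higher in liver and 19 in SCN beyond 2-fold, shares near the 23.8% and 27.6% of all shared genes. Of 18 commonly used reference genes, 9 differed beyond 2-fold, a share near the 51.4% of all shared genes. B2m was at 4.27 ± 0.06 and Ywhaz at -2.35 ± 0.05. The genes of at least 100 CPM in both tissues with intervals closest to 0 were led by Dnaja2, a chaperone, with 165 ± 25.0 CPM in liver and 161 ± 10.1 CPM in the SCN (SD, n = 18). Its difference averaged over the times was 0.02 ± 0.03, and -0.70 with those totals. It depended on the time of day, over a range of 0.45 on the log2 scale (adjusted p = 0.0165, edgeR), and was 0.24 on the MCD diet.

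Of the listed clock genes, 6 activators and 11 repressors were shared, and most of their tissue differences depended on the time of day. The test that the 6 differences are equal called 973 genes, 6.71% of those tested, and 5 of 6 shared clock activators, 10 of 11 repressors and 5 of 14 genes of clock output and protein turnover were among them. The count was 2186 by DESeq2 and between 89 and 815 when all libraries of 1 replicate number were left out. It also changed with the 8 liver libraries of low mt-Nd6 only. These kept a single liver library at CT0, CT4, CT8 and CT20, so that count is not given. Arntl had 55.4 ± 0.507 CPM in liver and 41.4 ± 2.47 CPM in the SCN at CT0 (SD, n = 3 throughout), 3.33 ± 1.54 and 35.96 ± 1.75 CPM at CT8, and 59.1 ± 6.30 and 58.0 ± 7.503 CPM at CT20. The tissues were close at CT20 and differed by -3.44 at CT8 and CT12. Nr1d1 differed by -4.93 at CT20, with 3.36 ± 0.954 CPM in liver and 102 ± 6.74 CPM in the SCN, and by 0.04 at CT8. Dbp, an output of the clock named for the albumin promoter's D site, had 1.02 ± 0.422 CPM in liver and 142 ± 14.4 CPM in the SCN at CT0, a difference of -7.15, and 279.9 ± 107 and 269.5 ± 8.48 CPM at CT8, a difference of 0.06. For these 3 genes the liver values had the wider range over the day.

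Period genes crossed. Per1 was lower in liver at CT4, 9.72 ± 10.5 against 104 ± 12.9 CPM, and higher at CT12, 118 ± 6.33 against 51.9 ± 13.1 CPM. Per2 differed by -0.80 at CT4 and by 2.94 at CT16, where liver had 229 ± 74.2 CPM and the SCN 29.6 ± 7.58 CPM. Single female libraries stood apart from the males at some times. The CT4 female liver had 21.8 CPM of Per1 against 3.82 and 3.504 CPM in the males, and 12.1 CPM of Arntl against 38.8 and 44.9 CPM. It had 147 CPM of Dbp against 37.3 and 35.9 CPM, and 69.8 CPM of Per2 against 20.9 and 17.98 CPM. With 1 female per time, sex and library cannot be told apart there. In 222 of the 973 genes the 6 differences had both signs. Bhlhe40 and Bhlhe41, related repressors, went opposite ways, at 3.18 ± 0.15 and -4.59 ± 0.23. Csnk1e, a kinase that marks PER proteins for breakdown, was higher in SCN at -2.22 ± 0.07.

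**Figure D4:**
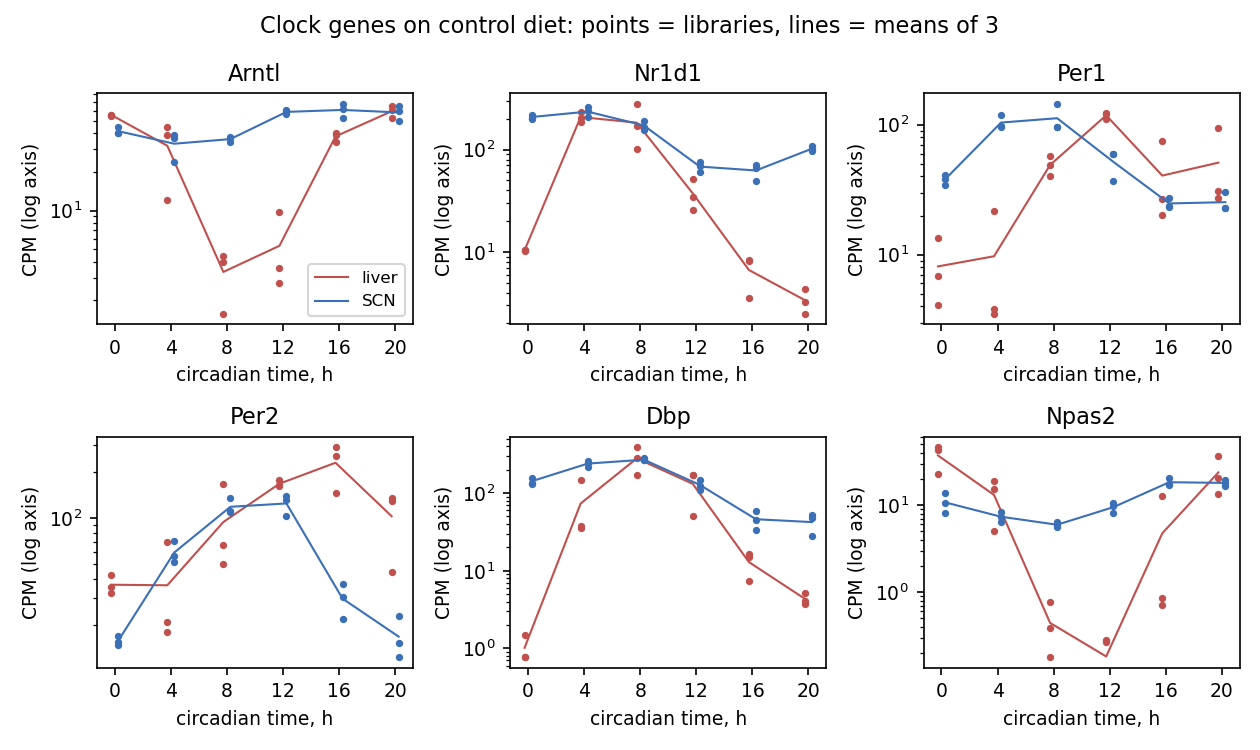
CPM on a log axis against circadian time for 6 clock genes, with points for libraries and lines for means of 3. Arntl, Nr1d1 and Dbp meet at some times and part at others, and liver Npas2 ranges over more of the axis than SCN Npas2. The liver CT12 library with no Npas2 count has no point on the log axis.

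By the naming rule, the genes of at least 1 CPM in both tissues with the widest range of differences were E130102H24Rik, Scd3, Gm45140, Gm45837, Tubg2, Npas2, Dbp, Ciart, Lingo4 and Gm28035. Npas2, the partner of BMAL1 related to CLOCK, differed by 1.76 at CT0 and -5.67 at CT12. Scd3, a desaturase, had no liver count at CT0, CT4 and CT20 and 129.9 ± 55.1 CPM at CT16, against 5.39 ± 0.217 CPM in the SCN. The calls of E130102H24Rik and Tubg2 ended when any 1 of the 3 liver CT16 libraries was left out (adjusted p of 0.0616 to 0.0701 and 0.0659 to 0.0743), and that of Gm45837 without any 1 of 29 libraries and that of Gm28035 without any 1 of 16.

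The tissue difference depended on sex for 888 genes, 6.13% of those tested: in females the liver minus SCN difference was higher for 599 and lower for 289. The term is the female minus the male difference. Cux2, a transcription factor, had 0.589 to 4.19 CPM in 12 male livers and 87.2 to 170.0 CPM in 6 female livers, and 14.9 to 24.3 and 12.4 to 28.6 CPM in the SCN. The sexes were apart in liver and overlapped in the SCN, with a term of 6.36 ± 0.31 (edgeR adjusted p = 3.77e-13), so the gene was higher in SCN in males and higher in liver in females. Acot3, a peroxisomal thioesterase, had 1.31 to 76.6 CPM in male and 128 to 409 CPM in female livers, a term of 4.65 ± 0.72. In the other direction, Nat8f5, of an acetyltransferase family, had 3.89 to 93.1 CPM in male and 0 to 0.706 CPM in female livers, and Lama3, a laminin chain, 5.24 to 24.0 and 0.817 to 2.76 CPM. Cspg5, a brain proteoglycan, had 1.24 to 5.76 CPM in male and 0 to 0.207 CPM in female livers, 132 to 161 CPM in male and 122 to 156 CPM in female SCN, and a term of -4.22 ± 0.40. The count was 1504 without the CT08 male liver library that lay among MCD livers and 566 without the CT04 and CT20 SCN females. It also changed with the 8 liver libraries of low mt-Nd6 only, a count not given because some times kept a single liver library.

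**Figure D5:**
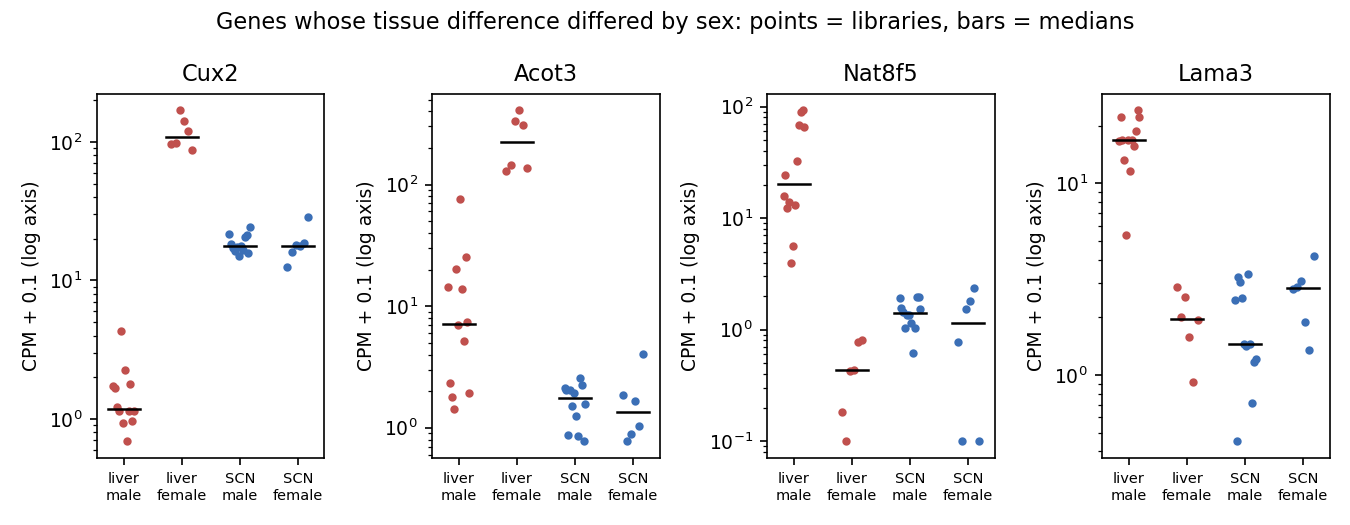
CPM plus 0.1 on a log axis for 4 genes whose tissue difference differed by sex, with 12 male and 6 female libraries per tissue and bars at medians. The sexes separate in liver and overlap in the SCN.

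On the MCD diet, fitted apart with 36 other libraries, 13162 genes were called, 90.8%, and 7323 beyond 2-fold, 50.5%. Of the 7446 genes beyond 2-fold on the control diet, 7415 had the same direction on MCD and 6782 were also beyond 2-fold there. In 165 genes the tissue difference was called in opposite directions on the diets. The difference between diets was not tested here.

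Genes higher in SCN beyond 2-fold more often spanned over 100 kb in the GENCODE annotation, 19.4% of them, than genes higher in liver, 13.9%, or all shared genes, 13.2%. The X chromosome held 5.49% of those higher in SCN, 2.21% of those higher in liver and 3.67% of all shared genes. These are shares of the called genes, with no test. Exons on the opposite strand overlapped 30.2% of all shared genes, among them Nnat, Map2 and Dbp. No label or file header used here says whether counting used strand, so reads of such genes and their partners may be mixed. The mitochondrial genes share sequence with nuclear copies such as Gm10925 and Gm28437, and their counts are uncertain.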

How the data were processed

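RNA from liver and SCN was sequenced after poly-A selection with a stranded kit, per the labels' protocols. The authors deposited whole-number counts per gene, 1 table per tissue. Trimmomatic, HISAT2, StringTie, DESeq2 and the build GRCm39 are named in the submitters' processing notes. Their versions and the counting options were not stated in the labels or headers. The authors also deposited counts per exon bin, summed here per gene for 34 files. All 36 control libraries entered 1 edgeR 4.0.16 quasi-likelihood fit with TMM factors (liver 0.710 to 0.929, SCN 1.23 to 1.32), 12 tissue and time groups and a sex term. filterByExpr with a minimum count of 10 kept all 14491 genes. Calls needed a Benjamini-Hochberg adjusted p below 0.05, and beyond 2-fold used glmTreat. The 2 CT08 male columns of each tissue carry 1 name and are called a and b. On simulated counts for this comparison over 14491 genes, 44 of 50 genes changed 1.5-fold and all 50 changed 4-fold were called. The simulated tissues shared 1 mean profile apart from the changed genes, whereas most shared genes differed in the data. The recovery may therefore not hold in the data. Named genes were the largest and smallest differences, the highest levels, the genes most alike, list and pair members, and the largest sex terms and time ranges. The members, lists and tests were chosen with earlier results of these data known. Alternatives were other scalings, filters, DESeq2, limma voom, left-out libraries, exon sums and a replicate block. Results of some genes are not reported here.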

Additional observations from a re-analysis of the deposited data

Results flagged for a closer look

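The liver minus SCN difference was not the same in females and males for the 10 genes named by the largest sex terms (female minus male, edgeR interaction term, 12 males and 6 females per tissue). Higher in females were Cux2 at 6.36, Tafa2 at 6.00, Sytl5 at 5.29, Rsph4a at 4.99 and Acot3 at 4.65. Lower in females were Nat8f6 at -11.01, Nat8f5 at -6.09, Cspg5 at -4.22, Lrp2 at -4.21 and Lama3 at -3.73. Nat8f6 had no count in any female liver and 0 to 15.9 CPM in male livers, so its term depends on the prior count. Sytl5 became 5.94 without the SCN CT08 female. Lrp2 became -4.92 without the liver CT00 female and -5.24 without the liver CT08 female.

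The SCN CT20 female library lay far from the other 5 SCN females for 2 of these genes. It had 36.1 CPM of Rsph4a, a gene of the radial spokes of motile cilia, against 13.2 to 17.1 CPM, and 3.96 CPM of Acot3 against 0.677 to 1.75 CPM. Chance flags about 1 in 20 groups in this way.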

How the results depend on the processing

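The counts of 13227 called genes and of 7446 beyond 2-fold stayed within 1.5 times of these values under every alternative run. The sex count of 888 was 325 with liver libraries of low mt-Nd6 only, 566 without the CT04 and CT20 SCN females (chosen after seeing the data), and 1342 in the numbered libraries with no block. It ranged from 257 to 1504 with replicates left out. The time count of 973 was 2186 by DESeq2, 2471 with liver libraries of low mt-Nd6 only and 301 with a replicate block in the numbered libraries, against 842 in the same libraries with no block, and ranged from 89 to 1327 with replicates left out. Correlations of 16 same-numbered pairs of liver and SCN libraries ran from -0.23 to 0.01, and none was best with its own number. They were taken after a fit with 1 sex term for both tissues, so sex differences of a single tissue remain in them. Libraries of 1 mouse need not correlate either, so these values cannot decide whether the numbers pair libraries. With the replicate block the counts of genes called, beyond 2-fold and by sex stayed within 1.5 times of the values above.

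Differences near 0 changed sign with the scaling, which moves all genes together. With totals of the shared genes, mt-Nd4 was -0.11, mt-Nd2 -0.071, mt-Nd1 -0.59, mt-Atp6 -0.34, Gm10925 -0.24, Gm28437 -0.23, Dnaja2 -0.70, Habp4 -0.72, Ube2d3 -0.70, Cct2 -0.70, Dctn2 -0.69, Bag1 -0.70 and Vps35 -0.67. List medians were then -0.45 for erythrocyte, -0.088 for respiratory chain, -0.11 for mitochondrial mRNA, -0.27 for proteasome, -0.14 for histone and DNA methylation, -0.41 for m6A and -0.21 for reference genes. The cholangiocyte median, of 2 shared genes, went from 0.54 to -0.19. With whole-table totals and no factor (chosen after seeing the data), mt-Cytb was -0.40, mt-Nd4 -0.52, mt-Nd2 -0.48, mt-Nd1 -0.99, mt-Atp6 -0.75, Gm10925 -0.64, Gm28437 -0.63, Dnaja2 -1.10, Habp4 -1.12, Ube2d3 -1.10, Cct2 -1.11, Dctn2 -1.09, Bag1 -1.10 and Vps35 -1.07. In the order above from erythrocyte to reference genes, the list medians were -0.85, -0.49, -0.52, -0.67, -0.54, -0.81 and -0.61. Those of the methionine and methyl cycle and of nuclear receptors were -0.13 and -0.010. With at least 1 CPM in both tissues, Dnaja2 was -0.19, Habp4 -0.20, Ube2d3 -0.18, Cct2 -0.19, Dctn2 -0.18, Bag1 -0.18, Vps35 -0.15 and the brain endothelium median 0.17. Dnaja2 was -0.065 with DESeq2 size factors and -0.064 by DESeq2, which gave -0.061 for Ube2d3. Exon sums gave -0.12 for Habp4, -0.22 for Bag1 and 0.10 for Hnrnpk. The brain endothelium median was 0.025 with low mt-Nd6 libraries, 0.029 with no sex term, 0.034 without replicate 1 and 0.034 without replicate 2, and the erythrocyte median was -0.0053 with high mt-Nd6 libraries. The cause was not tested. In liver 1888 shared genes averaged under 1 CPM and in the SCN 371, and their differences rest on the fewest counts.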
